A study of Arabidopsis thaliana with 14 samples.

Results

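For 96 nuclear genes of *Arabidopsis thaliana*, here called hotspots, 4 or more exonic circular RNAs (circRNAs) were listed. The genes were selected on that number alone. From the deposited list of 5861 circRNAs, those typed as exonic on chromosomes 1 to 5 were counted per parent gene, and every gene with at least 4 was kept apart from AT1G15405, which the selection left out. The 96 genes held 519 of the 4418 nuclear exonic circRNAs, and were 3.07% of the 3122 nuclear genes with at least 1. Since the count chose the genes, the number of circRNAs per gene is given as a description and is no finding.

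The circRNAs came from 14 strand-specific libraries of wild-type Col-0 plants, with 1 library per condition. One library pooled RNA of whole plants from 7 growth stages and is called the mixed sample. The other 13 came from whole plants at stages 1.14, 3.90, 6.50 and 8.00, from roots, stems, leaves, flowers and siliques of plants at stage 6.50, and from plants at stage 3.90 with no stress, drought (300 mM mannitol), salt (200 mM NaCl) or heat (38 °C). Plants of all libraries were grown in pots under long days, several plants were pooled per library, and the stress libraries are labelled as whole plants, while the study describes them in one place as whole plants and in another as aerial parts. The deposited list gives 1 read value per circRNA over the whole series and marks no condition. From the deposited lists, presence in the mixed sample, which has a list of its own, was compared, and differences between organs, stages or stresses were not analysed here.

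A circRNA is made when a splice donor at the 3′ end of an exon is joined back to an acceptor upstream of it, so that the exons between them close into a ring. The read across that back-spliced junction is the only evidence that separates the ring from the linear mRNA, and 1 gene can give several rings by pairing its donors and acceptors in different ways. RNase R, an enzyme that degrades linear RNA, was used on the RNA before sequencing.

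Junction sequences are shown for 2 genes that represent opposite kinds of hotspot. Each window has 20 bases on either side of a junction end, read 5′ to 3′ on the listed strand from the TAIR10.1 assembly. Capitals mark the AG just before the first base of the ring or the GT just after its last base. ATHB-15 (AT1G52150, minus strand of chromosome 1) encodes a class III homeodomain-leucine zipper transcription factor of vascular development. Its acceptor at chr1:19410889-19410928 was shared by 3 circRNAs and lies at the start of an annotated exon, and the donors end annotated exons.
ATHB-15 shared acceptor: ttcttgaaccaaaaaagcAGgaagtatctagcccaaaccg
ATHB-15 FC0755 donor: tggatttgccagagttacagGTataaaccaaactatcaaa
ATHB-15 FC0754 donor: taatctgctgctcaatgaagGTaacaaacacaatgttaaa
ATHB-15 FC0753 donor: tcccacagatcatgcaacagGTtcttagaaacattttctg

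NIA2 (AT1G37130, plus strand of chromosome 1) encodes the major nitrate reductase, the enzyme that reduces nitrate to nitrite. Its shared acceptor, at chr1:14160890-14160929, was listed on the minus strand, opposite to the gene. It lies inside the coding part of the last exon, and so do the donors shown except that of FC0635, which lies in the coding part of the first. The windows are the donors of the 5 circRNAs with most reads.
NIA2 shared acceptor: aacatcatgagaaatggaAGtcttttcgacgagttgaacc
NIA2 FC0643 donor: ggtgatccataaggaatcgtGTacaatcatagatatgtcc
NIA2 FC0637 donor: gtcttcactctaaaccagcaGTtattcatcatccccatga
NIA2 FC0640 donor: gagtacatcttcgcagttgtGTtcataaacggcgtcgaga
NIA2 FC0635 donor: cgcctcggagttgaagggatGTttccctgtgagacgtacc
NIA2 FC0641 donor: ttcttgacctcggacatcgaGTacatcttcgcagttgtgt

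All 519 hotspot circRNAs, like all 4418 nuclear exonic ones, had AG before and GT after the interval on the listed strand. The circRNA caller searches for this pair, so its presence is no finding. It follows that the listed strand is the strand on which AG and GT were found, and that a circRNA listed opposite to its gene cannot use the gene's own splice sites in their own direction.

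The 96 genes were spread over all 5 nuclear chromosomes, from 13 on chromosome 4 to 24 on chromosome 5. There were 50 genes with 4 circRNAs, 19 with 5, 10 with 6, 8 with 8, 3 with 9 and 6 with 10 or more. Of the 96, 95 matched the reference annotation. AT1G73602 did not, and its 4 circRNAs are left out of counts that need the gene's strand. In counts of exon boundaries they stand among circRNAs with no end on a boundary, although their ends could not be checked. The matched genes had a median length of 4970 bp and a median of 12 exons in the transcript with most exons, against 3886 bp and 11 exons for the 669 matched genes with 2 or 3 circRNAs and 3143 bp and 8 exons for the 2348 with 1.

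A circRNA was called exonic by boundary when both its ends coincided exactly with annotated exon ends. This held for 302 of the 519 hotspot circRNAs (58.2%, Wilson 95% interval 53.9% to 62.4%), while 34 had 1 end on a boundary and 183 had none. Over all nuclear exonic circRNAs the share was 65.3% (2884 of 4418). It was 72.7% (70.4% to 74.9%, n = 1511) in genes with 2 or 3 circRNAs and 63.0% (61.0% to 64.9%, n = 2355) in genes with 1. All such intervals cover counting error only, since circRNAs of 1 gene are not independent and no circRNA has a replicate library.

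The share on boundaries was not uniform within the 96 genes. It was 76.0% (152 of 200) in genes with exactly 4 circRNAs and 75% (385 of 513) in the 171 genes with exactly 3, which lie just outside the selection. It was 62.1% (59 of 95) in genes with 5, 55.6% (84 of 151) in genes with 6 to 9, and 9.59% (7 of 73) in the 6 genes with 10 or more. The 7 were 6 circRNAs of AT4G28080, a tetratricopeptide repeat protein, and 1 of GPRI1, also called GLK1, a transcription factor of chloroplast development. GRP7, NIA2, AT2G31141 and AT5G55896, the other genes of this group, had at most 3 exons in a transcript. Genes with so few exons can form few rings on boundaries, so the low share is in part built in.

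**Figure D1:**
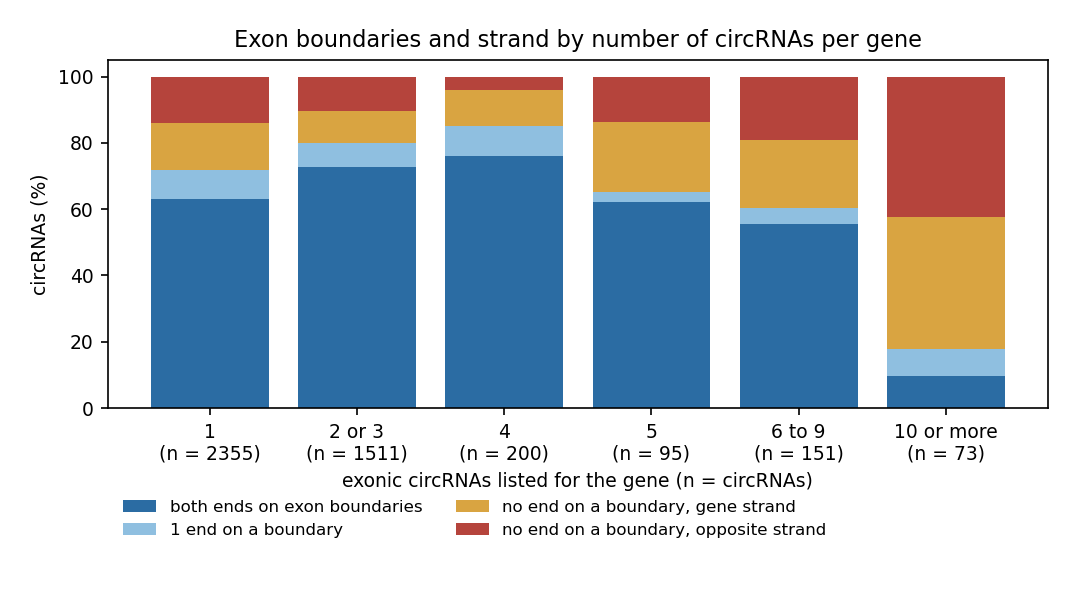
Share of circRNAs (%) by exon boundary and strand, for nuclear genes grouped by their number of listed exonic circRNAs; n is the number of circRNAs in each bar. The 4 circRNAs of AT1G73602, whose strand is unknown and whose exon ends could not be checked, are counted as gene strand with no end on a boundary. Both ends lay on exon boundaries for 76.0% of circRNAs in genes with 4 and for 9.59% in genes with 10 or more.

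By gene, 40 hotspots had every circRNA on boundaries (180 circRNAs), 37 had some (201 circRNAs) and 19 had none (138 circRNAs). The 19 include AT1G73602, whose boundaries could not be checked. The 40 had between 6 and 56 exons, with a median of 17, and the 18 annotated genes with none had between 1 and 7 exons, with a median of 3. A first exon has no acceptor and a last exon no donor, so genes with few exons can form few or no rings on boundaries. The difference in exon number is therefore in part built in. Among the 40 were AT1G02080, a subunit of the CCR4-NOT deadenylase complex, and RGLG4, a ubiquitin ligase, with 8 circRNAs each, and TOR, the target of rapamycin kinase, AT1G79990, a coatomer subunit, and AT3G61420 with 6 each. Among the 19 were GRP7 with 18 circRNAs, NIA2 with 13, AT2G31141 with 12, the pseudogene AT5G55896 with 10, and 5 genes with 8 each. Those 5 were GUN5, the H subunit of magnesium chelatase, HSC70-1, a cytosolic chaperone, FAD2, the oleate desaturase of the endoplasmic reticulum, CAT3, a catalase, and AT5G53440. The 19 also held RCA, the activase of Rubisco, with 6 circRNAs, and UBQ10, a polyubiquitin gene, with 5.

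**Figure D2:**
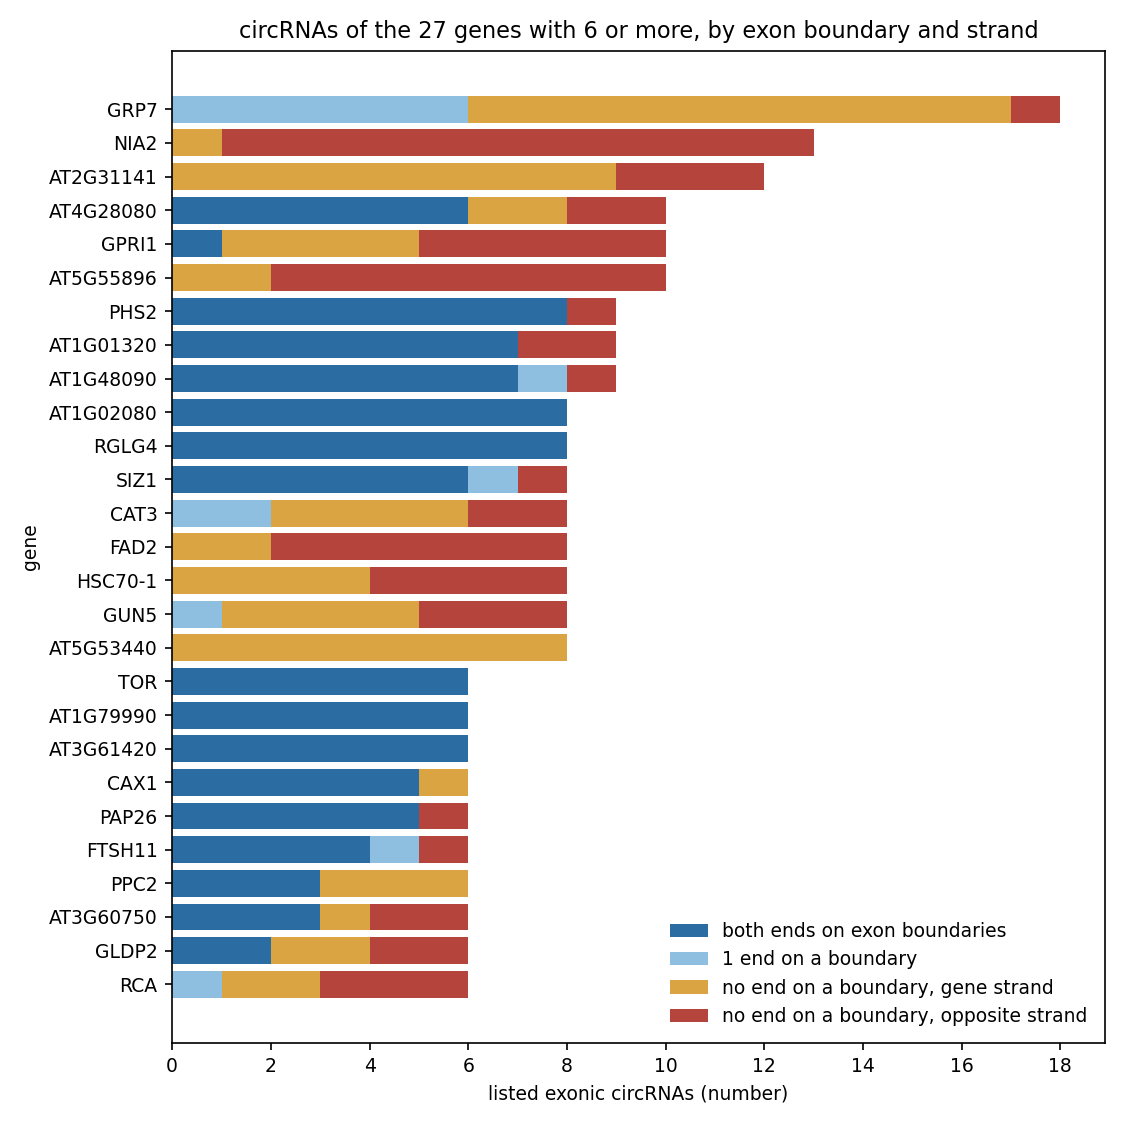
Number of listed exonic circRNAs of the 27 genes with 6 or more, split by exon boundary and strand. GRP7, with 18, had none with both ends on boundaries, and the 8 circRNAs of RGLG4 and of AT1G02080 were all on boundaries.

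The groups of genes by role, drawn up by hand after the genes were known, also differed in this respect. The 9 genes of signalling and protein modification had 43 of 48 circRNAs on boundaries (89.6%), and the 14 genes of membrane traffic, cytoskeleton and organelles had 53 of 65 (81.5%). The 18 genes of transcription, chromatin and RNA had 65 of 99 (65.7%), of which GRP7 gave 18 and none on a boundary. The 11 genes of photosynthesis and carbon fixation had 25 of 61 (41.0%), and the 5 of nitrogen, sulphur and amino acid metabolism had 9 of 31 (29.0%), of which NIA2 gave 13. The lowest share was that of the lipid genes, with 5 of 21 (23.8%). Translation, folding and proteolysis had 16 of 41 (39%), photorespiration and peroxisome 14 of 28 (50%), and genes of other or no assigned role 26 of 63 (41.3%). Starch and cell wall had 32 of 43 (74.4%), and transporters and channels 14 of 19 (73.7%). No test was made between these groups.

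The 302 circRNAs on boundaries spanned a median of 3 exons (range 1 to 10) and a median spliced length of 396 bases. There were 62 of a single exon (20.5%), 77 of 2 exons, 74 of 3 and 89 of 4 or more. None began at the first exon or ended at the last exon of the transcript used. The same held in genes with 2 or 3 circRNAs, and in genes with 1 only 3 of 1484 ended at the last exon. A first exon has no acceptor and a last exon no donor, so this is no finding. Single exons made up 22.8% of boundary circRNAs in genes with 2 or 3 circRNAs and 29.6% in genes with 1. The share differed by list. In hotspots it was 36 of 52 in the list of the mixed sample (69.2%) and 26 of 250 outside it (10.4%). Over all nuclear exonic circRNAs on boundaries it was 69.1% and 18.6%. The introns next to the ring had a median length of 102 bp in hotspots, 118 bp in genes with 2 or 3 and 115 bp in genes with 1.

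The presence of a circRNA in the mixed sample went along with where its ends lay. Of the 519 hotspot circRNAs, 147 were in the list of the mixed sample (28.3%, 24.6% to 32.3%), against 20.7% of all nuclear exonic circRNAs, 17.5% (15.7% to 19.5%) in genes with 2 or 3 and 471 of 2355 (18.4% to 21.7%) in genes with 1. Without the 7 genes that had 4 or more circRNAs in that list, the share in hotspots was 19.9% (n = 453). That drop is built in, since the 7 were taken out for their number in the list. Genes with fewer circRNAs cannot be cut in the same way, so the 19.9% is not comparable with their shares. Both ends were on boundaries for 52 of these 147 (35.4%, 28.1% to 43.4%) and for 250 of the 372 others (67.2%, 62.3% to 71.8%). Over all nuclear exonic circRNAs it was 427 of 916 in the list (46.6%, 43.4% to 49.9%) and 2457 of 3502 outside it (70.2%, 68.6% to 71.7%). In the 6 genes with 10 or more, 42 of 73 were in the mixed list (57.5%). The mixed library was sequenced with shorter reads and on another instrument than the 13 others and, per the study, to a greater depth than those had on average, so the pool of stages, the read length, the depth and the run cannot be told apart.

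Hotspot circRNAs with both ends on boundaries had a median length on the genome of 196 bp in the mixed list (117 to 962 bp) and 656 bp outside it (222 to 3227 bp). Those with 1 end on a boundary had medians of 170 bp (133 to 4154 bp, n = 8) and 790 bp (246 to 2576 bp, n = 26). Those with no end on a boundary had medians of 164 bp (104 to 3277 bp) and 367 bp (152 to 1941 bp), the lowest median in each list. In each class the circRNAs of the mixed list had the lower median, though the ranges overlapped widely.

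**Figure D3:**
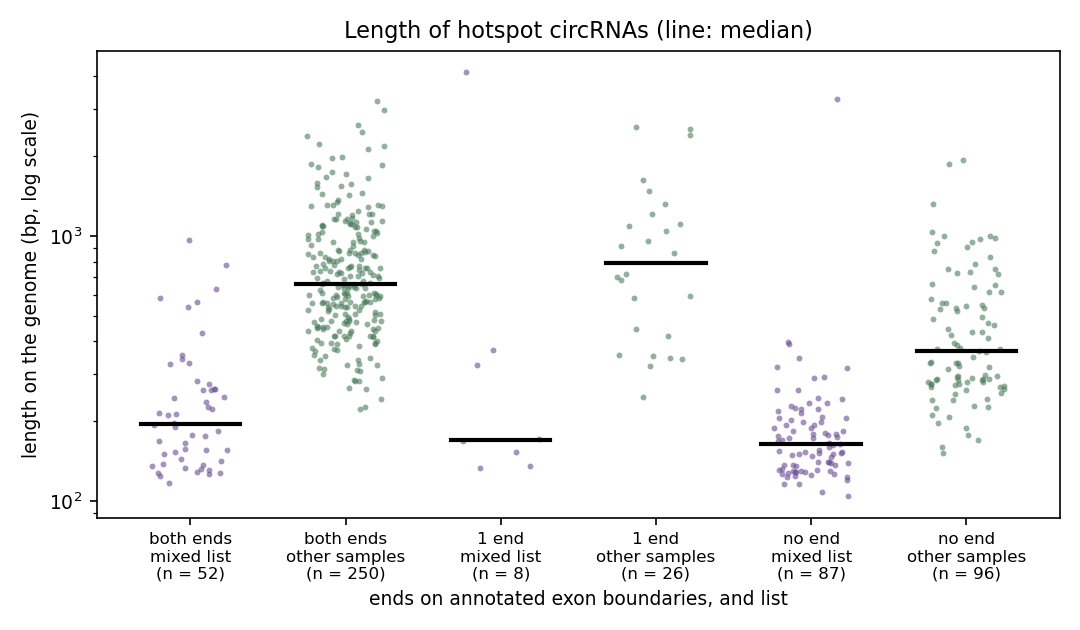
Length on the genome (bp, log scale) of each hotspot circRNA, by the number of its ends on annotated exon boundaries and by presence in the list of the mixed sample; lines are medians and n is the number of circRNAs. Medians in the mixed list were 196 bp with both ends on boundaries and 164 bp with none, against 656 and 367 bp outside it.

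For 3 genes every circRNA was in the mixed list. These were AT5G55896 (10 of 10), AT5G53440 (8 of 8) and DOT1, a glycine-rich protein of vein patterning (5 of 5). For GRP7 it was 17 of 18, for AT2G31141 9 of 12, and for 34 genes none. In the 19 genes with no circRNA on boundaries the mixed list held 76 of 138 (55.1%), and in the 40 genes with all on boundaries 32 of 180 (17.8%).

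Starts and ends were often used more than once. Of the 519 circRNAs, 272 shared an exact start or an exact end with another circRNA of the same gene and strand (52.4%, 48.1% to 56.7%). In genes with 2 or 3 circRNAs the share was 38.6% (36.2% to 41.1%), where each circRNA has fewer possible partners. Per pair the order was the other way, with a common start or end in 303 of 1106 same-strand pairs of hotspots (27.4%) and in 319 of 881 pairs in genes with 2 or 3 (36.2%). There were 134 shared positions, 76 acceptors and 58 donors, in 76 genes. At 36 of them 3 or more circRNAs met, 23 acceptors and 13 donors in 28 genes, and at 11 of them 4 or more. In 20 genes no position was shared, and in 15 genes every circRNA shared one.

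The largest set was that of NIA2, with 12 of its 13 circRNAs ending in the acceptor at chr1:14160909, given above. The reads of the 12 were 40, 27, 24, 9, 9, 8, 7, 6, 5, 5, 4 and 4. The only circRNA on the gene's own strand had 7 reads and no partner. All 12 were opposite to the gene, none had an end on a boundary, and their lengths ran from 124 to 1941 bp. Together they held 148 of the 155 listed reads of NIA2, the highest total of the 96 genes. The closest family member NIA1 had no listed circRNA, and NIR1, which encodes nitrite reductase, the next enzyme of the pathway, had 1 circRNA with 22 reads, also opposite to its gene.

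GPRI1 had a pair of such sets on its 2 strands. On the minus strand, opposite to the gene, 5 circRNAs with 13 reads shared the acceptor at chr2:8857575, and on the plus strand 4 circRNAs with 26 reads shared the donor at chr2:8857573, next to it. None of these 9 had an end on an exon boundary, and the remaining circRNA, of exons 3 to 4 and with 31 reads, had both. The related gene GLK2 had none listed.

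In other genes the shared position was a boundary. In AT2G32430, a galactosyltransferase, 4 circRNAs left from the acceptor of exon 4 and ended after exons 4, 5, 6 and 10, with 2, 10, 5 and 17 reads. In RGLG4, 4 circRNAs that began at exons 3, 4, 5 and 6 ended with exon 7, with 6, 2, 9 and 5 reads, and 3 that began at exons 5, 6 and 7 ended with exon 9, with 4, 7 and 13 reads. In ATHB-15 the circRNAs of exon 15, exons 15 to 16 and exons 15 to 17 had 28, 53 and 25 reads, and 2 more shared the donor of exon 14, with 32 reads for exons 12 to 14 and 6 reads for exons 10 to 14.

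**Figure D4:**
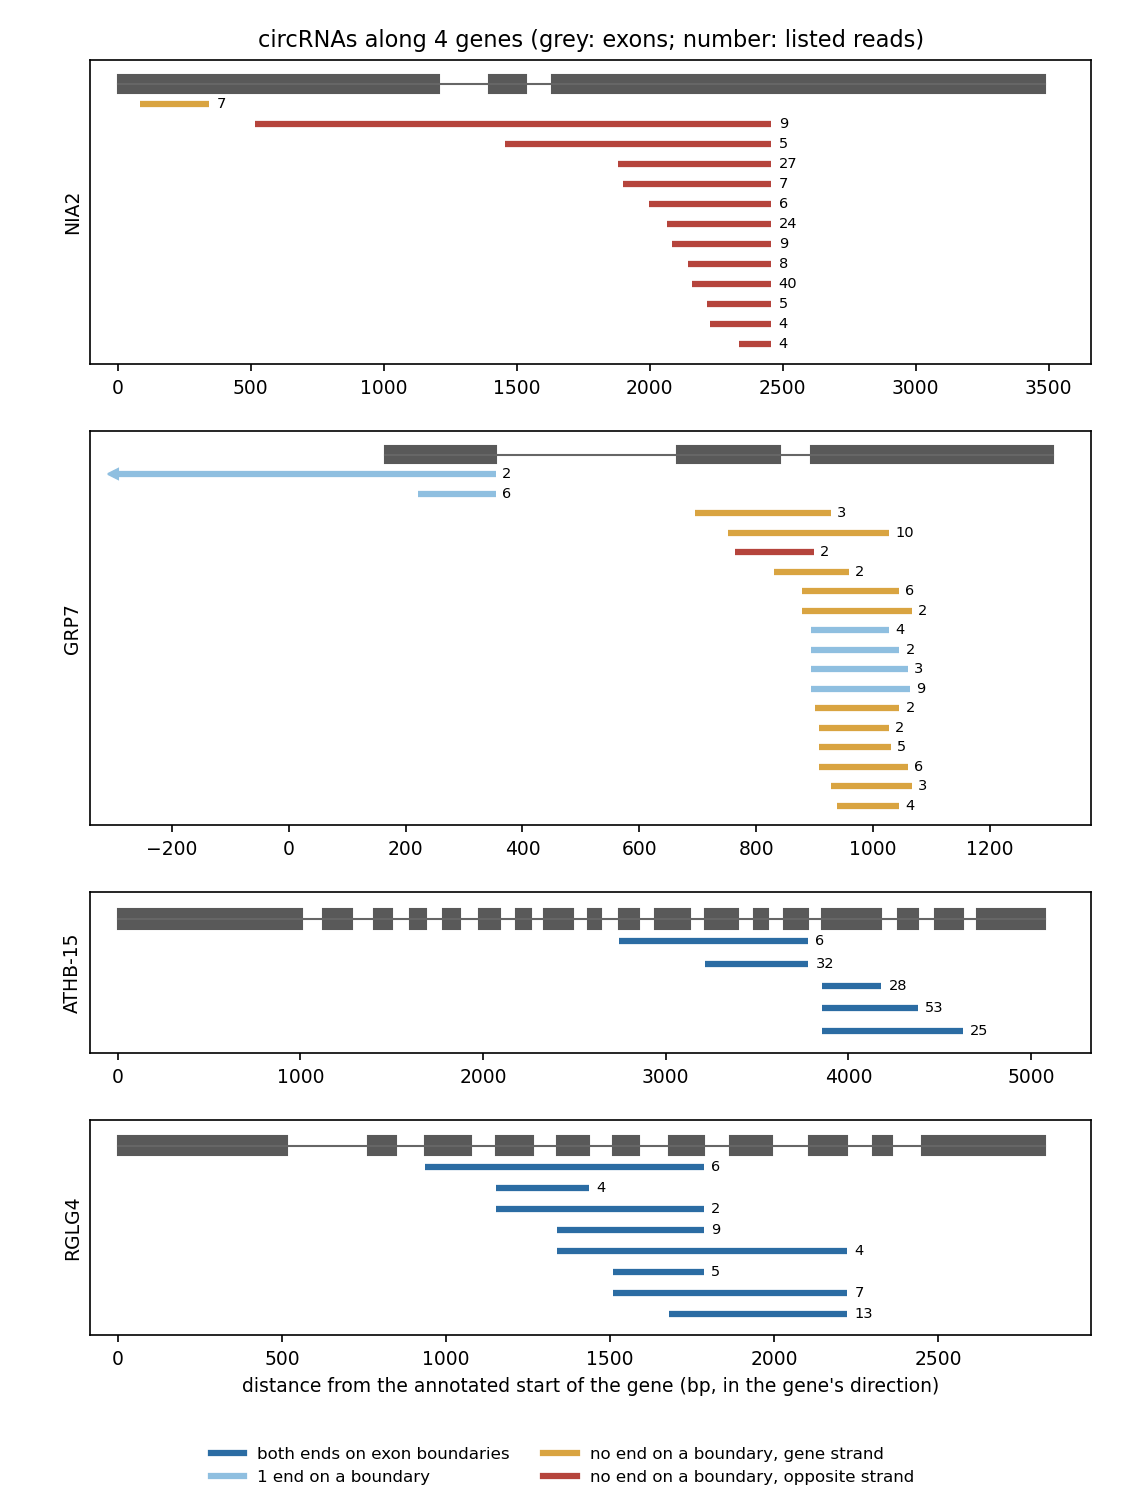
circRNAs of NIA2, GRP7, ATHB-15 and RGLG4 as lines along the gene (distance from the annotated start, bp, in the gene's direction), coloured by exon boundary and strand, with listed reads beside each; grey boxes are exons of the transcript with most exons, and the arrow marks a GRP7 circRNA that runs on past the plotted range. In NIA2 12 circRNAs meet at 1 position inside the last exon, and in RGLG4 and ATHB-15 all ends fall on exon boundaries.

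Rings were also set inside one another. On the same strand, 314 circRNAs lay inside or held another one of their gene (60.5%, 56.2% to 64.6%), counting those that share an end. In genes with 2 or 3 it was 44.6% (42.1% to 47.1%). Per pair the order was again the other way, with 406 of 1106 same-strand pairs of hotspots inside one another (36.7%) and 378 of 881 in genes with 2 or 3 (42.9%). By kind, the 1106 same-strand pairs of the 96 genes were 496 apart, 204 partly overlapping, 196 with a common right end, 107 with a common left end and 103 nested with no common end, where left and right follow the genome. In 26 genes all circRNAs overlapped in 1 stretch, in 35 they formed 2 separate stretches and in 35 there were 3 or more, up to 6 in AT1G48090, a long gene annotated as a calcium-dependent lipid-binding protein. The circRNAs covered a median of 35.8% of the length of their gene.

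AT1G02080 is an example of separate stretches. Its 8 circRNAs formed 5 stretches along a gene of 50 exons and had 36, 29, 26, 12, 8, 7, 6 and 2 reads. Numbered in a transcript of 49 exons, the circRNA with 36 reads covered exons 35 to 36, and held the single exon 35 with 8 reads and lay within exons 34 to 36 with 26 reads. A circRNA of exons 6 to 7, far upstream, had 29 reads.

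A different arrangement was seen in GRP7 (AT2G21660, minus strand of chromosome 2), a glycine-rich RNA-binding protein under circadian control. Most of its junctions fell in the stretch chr2:9265479-9265695, which is coding sequence in an annotated transcript and holds the glycine repeats. The stretch is given in the direction of the gene, with the AG before each of 6 acceptors and the GT after each of 8 donors in capitals.
GRP7 stretch: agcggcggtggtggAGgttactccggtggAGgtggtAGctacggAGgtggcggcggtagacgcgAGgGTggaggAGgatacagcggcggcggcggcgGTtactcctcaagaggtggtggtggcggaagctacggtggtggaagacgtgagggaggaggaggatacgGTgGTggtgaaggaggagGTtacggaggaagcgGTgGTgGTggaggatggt

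In that stretch lay 12 circRNAs with 48 of the 73 reads of GRP7, and 10 of the 12 had a length that is a multiple of 3. The acceptor at chr2:9265664, which starts an annotated exon, was shared by 4 circRNAs, and the one at chr2:9265649, inside the same exon, by 3. Its 18 circRNAs had between 2 and 10 reads, and the one with 10 (FC1294) held 13.7% of the reads (exact 95% interval 6.77% to 23.8%), the lowest top share of all 96 genes. An equal share among 18 circRNAs would be 5.56%, and a gene with more circRNAs can have a lower top share. One of 2 hotspot circRNAs that ran past an annotated gene end belonged to GRP7, with a length of 4154 bp and 2 reads, and the other to RBCS2B, a small subunit of Rubisco.

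Lengths that are a multiple of 3 were counted for circRNAs that lie inside 1 coding exon with no end on a boundary. On the strand of the gene it was 33 of 57 hotspot circRNAs (57.9%, 45.0% to 69.8%) and 124 of 256 circRNAs of other genes (48.4%, 42.4% to 54.5%). On the opposite strand it was 14 of 40 (35.0%, 22.1% to 50.5%) and 90 of 234 (38.5%, 32.5% to 44.8%). Of all whole numbers, 1 in 3 is a multiple of 3, and no test was made. Inside and outside the mixed list, hotspots had 21 of 40 and 12 of 17 on the gene strand, and 3 of 17 and 11 of 23 on the opposite strand. Other genes had 63 of 113 and 61 of 143 on the gene strand, and 44 of 102 and 46 of 132 on the opposite strand. With circRNAs that have 1 end on a boundary counted too, the hotspots with 3 or more such circRNAs on the gene strand had 11 of 15 multiples of 3 in GRP7, 3 of 3 in DOT1, 3 of 4 in CAT3, 3 of 4 in LOS1, a translation elongation factor, 2 of 3 in PPC2, a phosphoenolpyruvate carboxylase, 2 of 4 in UBQ10, 2 of 4 in HSC70-1, 2 of 7 in AT5G53440 and 1 of 3 in GUN5.

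At some junctions the same bases stood at both ends, so that the junction can be placed at several positions with 1 and the same sequence. The median number of repeated bases was 2 in hotspots, and 21 of the 519 had 6 or more (4.05%, 2.66% to 6.11%), against 4.24% in genes with 2 or 3 and 4.76% in genes with 1. Of the 21, 6 belonged to GRP7 and 3 to DOT1. The longest was the 23 bases of DOT1 FC5634 (2 reads), printed with both copies in capitals from chr2:15165651-15165799, all coding sequence.
DOT1 FC5634: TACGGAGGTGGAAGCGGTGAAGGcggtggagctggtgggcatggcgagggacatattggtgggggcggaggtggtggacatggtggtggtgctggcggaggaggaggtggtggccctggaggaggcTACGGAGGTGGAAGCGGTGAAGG

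The 60 bases across each junction were also searched in the linear genome and in the annotated transcripts. A match with at most 3 differing bases was found for 3 of 519 hotspot junctions (0.578%, 0.197% to 1.69%), against 0.498% of all nuclear exonic ones. The 3 were FC5634 and FC5635 of DOT1 and FC2558 of UBQ10, with 2, 2 and 3 reads. For these a linear read could differ from a back-spliced read at no more than 3 of the 60 bases. FC2558 is 228 bp long, and the 228 bp just before it in UBQ10 were the same at 198 positions (86.8%), as the gene repeats its ubiquitin unit head to tail. It is printed with the 8 repeated bases in capitals, from chr4:2719567-2719802.
UBQ10 FC2558: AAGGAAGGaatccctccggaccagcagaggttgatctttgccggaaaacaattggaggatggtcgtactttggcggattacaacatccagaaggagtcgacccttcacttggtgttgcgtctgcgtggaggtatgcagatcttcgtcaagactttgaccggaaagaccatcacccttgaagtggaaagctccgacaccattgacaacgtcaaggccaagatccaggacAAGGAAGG

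Some genes had circRNAs listed on both strands, where the listed strand is the one on which AG and GT were found. Transcription of the opposite strand was not tested. Opposite to their gene were 81 of the 515 circRNAs of matched hotspots (15.7%, 12.8% to 19.1%), against 13.6% of all nuclear exonic circRNAs of matched genes, 10.4% (157 of 1509) in genes with 2 or 3 and 14.2% (12.9% to 15.7%) in genes with 1. Without NIA2, which gave 12 of the 81, the share was 13.7% (69 of 502). The 81 had 563 listed reads and lay in 33 genes, 15 of which had a single one. No hotspot had all its circRNAs on the opposite strand, and the 40 genes with all ends on boundaries had none, as follows from the splice signals.

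In 16 genes each strand had 2 or more circRNAs. In FAD2 the opposite strand had 6 circRNAs with 32 of 38 reads, in AT5G55896 8 with 35 of 44, in RCA 3 with 22 of 31, and in GUN5 3 with 17 of 34. HSC70-1 had 4 on each strand and 14 of 51 reads on the opposite one. The opposite strand held more circRNAs than the gene's own in 5 genes, NIA2, FAD2, AT5G55896, MAT3, which makes S-adenosylmethionine, and ATMS1, a methionine synthase. Of these AT5G55896 rested wholly on the mixed sample, while FAD2 had 1 of 8 circRNAs there.

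Across the strands, 298 pairs of circRNAs were 161 apart, 88 partly overlapping and 49 nested. In 2 genes a circRNA had a near mirror image, with both ends within 10 bp, on the other strand. In GOX2, a glycolate oxidase of photorespiration, FC1978 covered exons 2 to 5 on boundaries with 6 reads, and FC1979 on the opposite strand began 4 bp and ended 6 bp inside it, with 4 reads. In AT2G31141, of unknown function, FC4808 with 17 reads and FC5148 with 5 differed by 3 and 6 bp.

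The midpoints of those on boundaries were at a median of 50.6% of the gene's length from its start (quartiles 31.8% and 68.2%). Those on the gene strand with no end on a boundary were at 62.8% (51.5% and 76.6%), and those on the opposite strand at 65.1% (54.0% and 75.9%). The quartiles of the 3 kinds overlap, and no test was made between them. The positions pool circRNAs of 1 gene, which are not independent, and no value per gene was computed. Of the 81 on the opposite strand, NIA2 gave 12, AT5G55896 8 and FAD2 6.

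Reads were few and were shared unevenly among the circRNAs of a gene. The 519 circRNAs had 4266 of the 34146 listed reads of nuclear exonic circRNAs (12.5%), near their share of the circRNAs (11.7%). Their median was 5 reads (range 2 to 84), as in genes with 2 or 3 (5) and near that in genes with 1 (4), and 93 had the minimum of 2. Per gene the total ran from 12 to 155 with a median of 35.5, and 14 genes had under 20 reads.

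The circRNA with most reads held a median of 42.1% of its gene's reads (quartiles 31.6% and 52.4%). It held more reads than all others together in 26 genes, and at least 2 times the reads of the next circRNA in 36. The exact 95% interval of its share lay above an equal share in 62 of the 96 genes. The highest of several counts always exceeds an equal share, so this is no test. The interval also treats the reads of a gene as drawn from the same pool. Values within a gene can come from different libraries of unknown depth, so such shares can mix libraries. Among the 93 genes with a single leading circRNA, that circRNA had both ends on boundaries in 63 and lay on the opposite strand in 11. Over all hotspot circRNAs it was 302 of 519 (58.2%) on boundaries and 81 of 515 (15.7%) on the opposite strand. Those shares weight genes by their number of circRNAs, whereas the leading circRNAs count each gene once. As a mean over the 96 genes, the share on boundaries was 65%. No test was made.

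**Figure D5:**
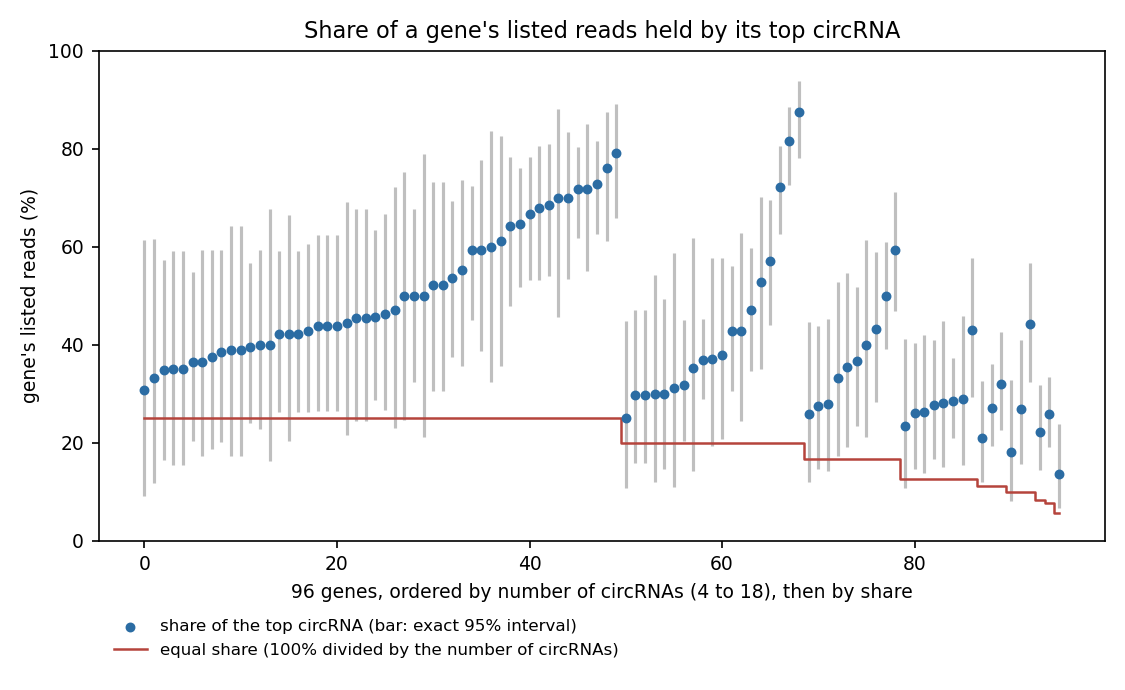
Share (%) of the listed reads of each of the 96 genes held by its circRNA with most reads, with the exact 95% interval. Also shown is the share each circRNA would hold if all were equal. The intervals cover counting error only, and only if the reads of a gene come from the same pool. Values within a gene can come from different libraries of unknown depth, which the intervals leave out. Shares ran from 13.7% in GRP7 to 87.5% in AT5G24740.

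The 3 highest shares were those of AT5G24740, a vacuolar sorting-associated protein, CTR1 and VCL1, where an equal share would be 20%, 20% and 25%. In AT5G24740 FC3508 had 70 of 80 reads (87.5%, 78.2% to 93.8%) and the 4 others 3, 3, 2 and 2. FC3508 was the circRNA on the opposite strand, with no end on a boundary, and the 4 others had both ends on boundaries. In CTR1, the kinase that represses ethylene signalling, FC3139 of exons 2 to 4 had 84 of 103 reads (81.6%), and the others, all on boundaries, had 7, 5, 4 and 3. In VCL1, needed to form the vacuole, FC1552 of exons 13 to 14 had 42 of 53 reads (79.2%), and the others 7, 2 and 2.

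The 3 lowest shares were those of GRP7 (13.7%), AT5G55896 (18.2%) and AT1G01320 (20.9%). An equal share would be 5.56%, 10% and 11.1% in these genes, so the order of top shares in part follows the number of circRNAs per gene. In AT5G55896 the 10 circRNAs had 8, 5, 5, 5, 4, 4, 4, 4, 3 and 2 reads. In AT1G01320 the 9 had 14, 13, 12, 9, 6, 6, 3, 2 and 2. In both genes the interval of the top share held the share of the next circRNA.

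After NIA2 the most reads were those of ATHB-15 (144), AT1G02080 (126), AT1G48090 (118) and CP5 (104), a lipid-binding START protein. In CP5 the single exon 3 (FC4762) had 75 reads and stood in the mixed list, as did 3 of its 4 other circRNAs. In AT1G48090 the 9 circRNAs had 32, 31, 24, 9, 5, 5, 5, 4 and 3 reads, and none was in the mixed list.

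In gene families the circRNAs were spread unequally. Of the class III homeodomain-leucine zipper genes, which set leaf polarity and vascular pattern, ATHB-15 had 5 circRNAs, PHV 4 with 35 reads, PHB 4 with 38 reads, REV 3 with 40 reads, just outside the selection, and HB-8 none. All 16 lay on exon boundaries. Both ATHB-15 and PHV had a circRNA of exon 15 and one of exons 15 to 17, with 28 and 25 reads in ATHB-15 and 11 and 15 reads in PHV, while those of PHB and REV covered exons 4 to 13 and 8 to 12. Among the hotspots were also the cellulose synthases of the primary wall CESA1, CESA5 and CESA6, with 5, 4 and 4 circRNAs. The P-proteins of glycine decarboxylase GLDP1 and GLDP2, hotspots too, had 5 and 6. They are named because they passed the selection, and other cellulose synthases were not compared.

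For other hotspots the close relatives had few or none. CAT3 had 8 circRNAs, CAT2 1 and CAT1 none, although all encode catalases. PPC2, a phosphoenolpyruvate carboxylase, had 6 with 69 reads, and PPC1 and PPC3 had none. CAX1, a vacuolar calcium exchanger, had 6 and CAX3 none. One clathrin heavy chain gene (AT3G11130) had 5 and the other (AT3G08530) none. GOX2 had 5 and GOX1 2, and the transcriptional corepressors LUH and LUG had 4 and 2, with all circRNAs of GOX1, LUH and LUG on boundaries. The chosen count sets the number for the hotspots, and a circRNA whose reads match both copies of a close pair could have been lost or placed on either one, which was not tested.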

How the data were processed

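The deposited data were 2 lists of circRNAs. Per the study's methods, the authors filtered the reads, aligned them with TopHat2 and Bowtie2 (version 2.0.5 in the submitters' processing notes) to TAIR10, called circRNAs with find_circ and kept those with at least 2 back-spliced reads. The value per circRNA in the list of the whole series is a score deposited by the authors as a mean junction read count. It holds whole numbers and is called listed reads here. It was equal to the mixed sample's own value for all 147 hotspot circRNAs of that list, so values within 1 gene can come from different libraries, and the deposited lists give no depth per library. The second list holds counts of back-spliced reads that the authors deposited for the mixed sample (1217 circRNAs, 8987 reads). How the caller's strand relates to the library strand is not given in the sources used here.

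Listed starts were counted from 0 (length was end minus start in all 5861 circRNAs), and 1 was added. Intervals were placed on the RefSeq annotation of TAIR10.1, whose nuclear sequence gave AG and GT around all 4418 junctions. A boundary was an exact match (0 bp) to an exon end of any transcript of the parent gene, of which 3113 of 3122 matched by locus. The circRNAs of unmatched genes were counted as having no end on a boundary. Exons spanned were taken from the transcript with most matching ends. Junction sequences (60 bases) were searched with blastn 2.17.0. Shares have Wilson 95% intervals and read shares within a gene exact Clopper-Pearson ones. The Clopper-Pearson intervals treat the listed reads of a gene as drawn from the same pool, and leave out differences between libraries. With 1 library per condition no test between groups was possible. Functions were tested on simulated data. Text values were computed with Python 3.11.15, pandas 2.3.3 and scipy 1.17.1.

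The members, gene groups and families were chosen with earlier results of these data known. Named were genes with 6 or more circRNAs, the 5 with most reads, the largest sets of shared ends, genes with both strands, the 3 highest and 3 lowest top shares, families and members of role groups. Alternatives were read minimums, thresholds, tolerances, weighting, strand and lists, and leaving the mixed list out of each share was added after seeing the data. No paired analysis was possible because no group has replicates.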

Additional observations from a re-analysis of the deposited data

Results flagged for a closer look

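Some circRNAs of the deposited list lie in hotspot genes but outside the exonic class described above, as intronic or intergenic ones. Every listed circRNA has at least 2 reads, so their read totals are given as a description only. There were 5 circRNAs typed as intronic in 5 hotspot genes, with 53 listed reads in all. The highest was FC3947 in CESA6, a cellulose synthase, with 36 reads, against 16 for the leading exonic circRNA of the gene.

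There were also 10 circRNAs typed as intergenic that overlap 5 hotspot genes, with 6593 listed reads in all. Of these, 3 that overlap RBCS2B and run on past it had 2080, 2755 and 1689 reads and lengths of 3532, 3582 and 6760 bp, while the 4 exonic circRNAs of RBCS2B had 6, 2, 2 and 2 reads. FC3848, with 30 reads over 45623 bp, overlaps PHOT2, and 4 circRNAs with 6, 10, 9 and 2 reads overlap AT5G55896. Whether reads of near-identical gene copies enter these values was not tested.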

How the results depend on the processing

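The number of genes with 4 or more circRNAs was 96. It was 30 when each circRNA needed 5 reads, 46 at a threshold of 5 circRNAs, 267 at a threshold of 3, 52 with only circRNAs outside the mixed list and 7 with only those in it, all but the threshold of 3 being subsets of the 96 by construction. The share on boundaries was 68.1% weighted by reads, 65.0% as a mean over genes and 67.2% outside the mixed list. The share with a common end was 47.9% with at least 3 reads, 41.2% with at least 5 and 46.5% outside the mixed list, where partners are lost by construction. The share inside or holding another was 65.7% over both strands, 56.1% with at least 3 reads and 52.4% outside the mixed list. The top share was 44.8% pooled over genes. The median repeat was 0 for circRNAs with no end on a boundary. The share in the mixed list was 19.9% without the 7 genes with 4 or more there, which lowers it by construction. Each of the other 14 alternatives stayed within the main value's interval, or within 1.5 times the gene count. Low read numbers, a single library per condition and a single value per circRNA limit all shares.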
